A study of Mus musculus with 8 samples.

Results

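Respiratory complex I, the NADH dehydrogenase of the inner mitochondrial membrane, was followed here at the level of its transcripts in whole liver. Its genes were taken by symbol, as all genes of the deposited count table whose GENCODE M21 symbol starts with Nduf, with the symbol Ndufab1-ps left out. This gave 49 of the 46517 genes in the table. They were 36 nuclear subunits, 8 Ndufaf assembly factors, Ndufa4 with its paralog Ndufa4l2, and 3 annotated processed pseudogenes (Ndufs6b, Ndufb4c and Ndufa11b). All but the 3 pseudogenes had enough counts to be tested, and these 46 stood among 13278 tested genes.

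The livers came from 8 male C57BL/6 mice that were 31 weeks old, had eaten a NASH-inducing diet for 25 weeks from the age of 6 weeks, and were fasted for 16 hours. Of these, 4 were MøFoxO1-KO mice, in which both FoxO1 alleles carry loxP sites and Cre is driven by the Lyz2 promoter, so that FoxO1 is deleted in macrophages and in other myeloid cells. The other 4 were WT littermates with the same floxed alleles and no Cre. Polyadenylated RNA from about 10 mg of liver was sequenced for each mouse, and the mice carry their animal numbers, WT22 to WT25 and KO26 to KO29. Values by mouse are given below in that order, as normalized counts, which are read counts scaled by the TMM factors to a common library size.

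Total counts lay between 15253218 and 18025481 per mouse, and mitochondrially encoded genes took between 4.16% and 6.33% of them. Foxo1 itself stood at 395.3, 459.2, 302.7 and 458.9 normalized counts in WT livers and at 429.4, 302.2, 415.7 and 289.9 in KO livers (log2 fold change −0.17 ± 0.18 SE, adjusted P = 0.686 in edgeR). The groups overlapped, in a tissue in which most Foxo1 transcripts need not come from the cells that express Cre. Summed hepatocyte markers lay between 1168000 and 1578000 normalized counts in WT and between 1396000 and 2014000 in KO livers. Of the 7 markers 6 were higher in KO, where 48.3% of all tested genes were higher. The summed macrophage markers lay between 2946 and 5028 in WT and between 3211 and 14480 in KO, with 8 of 9 higher. Marco and Timd4 had the largest differences, though the groups overlapped for Marco (66.43 in KO28, 81.22 in WT24). Lyz2 was the marker that was lower in KO (log2 fold change −0.77 ± 0.64 SE). At an unadjusted P under 0.05 in edgeR, 2 of the hepatocyte and 5 of the macrophage markers were higher, against 8.65% of all tested genes. Both the hepatocyte and the macrophage sums overlapped between the groups. Of brown fat and muscle markers, Ucp1, Ckm, Acta1 and Myh1 summed to at most 2.239 normalized counts in any liver, and Myh1 was at 0 in all of them. Stellate, endothelial, bile duct, T cell, B cell and neutrophil marker sums overlapped between the groups as well. Of the genes in these 6 lists, Col1a1 was the only one at an unadjusted P under 0.05 in edgeR (log2 fold change −1.28). The part of the hepatocyte and macrophage markers in the differences below was not tested. These were bulk samples, so that a changed number of cells of a type cannot be told apart from a changed amount of RNA per cell.

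Complex I takes electrons from NADH and passes them through a flavin and a chain of iron-sulfur clusters to coenzyme Q, while protons are pumped across the membrane. A set of core subunits, conserved from bacteria, does this chemistry. The NADH-oxidizing tip is built of Ndufv1, Ndufv2 and Ndufs1, the quinone-reducing part of subunits such as Ndufs3, Ndufs7 and Ndufs8, and the proton-pumping membrane arm of the mitochondrially encoded mt-Nd proteins. Mammals add many accessory subunits, most of them small proteins that wrap the core and are needed for its assembly or stability. Assembly factors build the intermediates and are not part of the finished enzyme. In the liver, complex I reoxidizes the NADH made by fatty acid oxidation and the citric acid cycle.

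Transcripts of the nuclear subunits were higher in MøFoxO1-KO livers in 34 of 36 cases, with a median log2 fold change of 0.41, where the median over all tested genes was −0.01 and 48.3% of all tested genes were higher. At an unadjusted P under 0.05 in edgeR's quasi-likelihood test, 25 of 36 subunits were higher and 0 were lower. Over all tested genes, 8.65% were higher and 8.06% were lower at the same threshold. None of the subunits had an adjusted P under 0.05 in edgeR, a level that 0.294% of tested genes reached in either direction. DESeq2 gave an adjusted P under 0.05 to 9 of the 36, all higher, beside 2.11% of its tested genes in that direction, and limma-voom to 0. The difference per gene was thus small, and no single subunit passed the adjusted threshold of edgeR. With KO29 left out, or with WT24 left out, 16 subunits were higher at an unadjusted P under 0.05.

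In 14 of the 36 subunits every KO liver lay above every WT liver, against 5.00% of tested genes. In 0 subunits did every KO liver lie below every WT liver, against 4.71% of tested genes. The mice of a group did not stand together, however. WT23 had the lowest value of all 8 mice in 20 subunits and WT24 in 15, while WT22 and WT25 were lowest in none. KO29 had the highest value in 17 subunits and KO27 in 11, and KO26 was the lowest of the KO mice in 25. As the map of values by mouse shows, WT22, WT25 and KO26 lay close to one another over most subunits, with WT23 and WT24 on one side of them and KO27 and KO29 on the other.

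**Figure D1:**
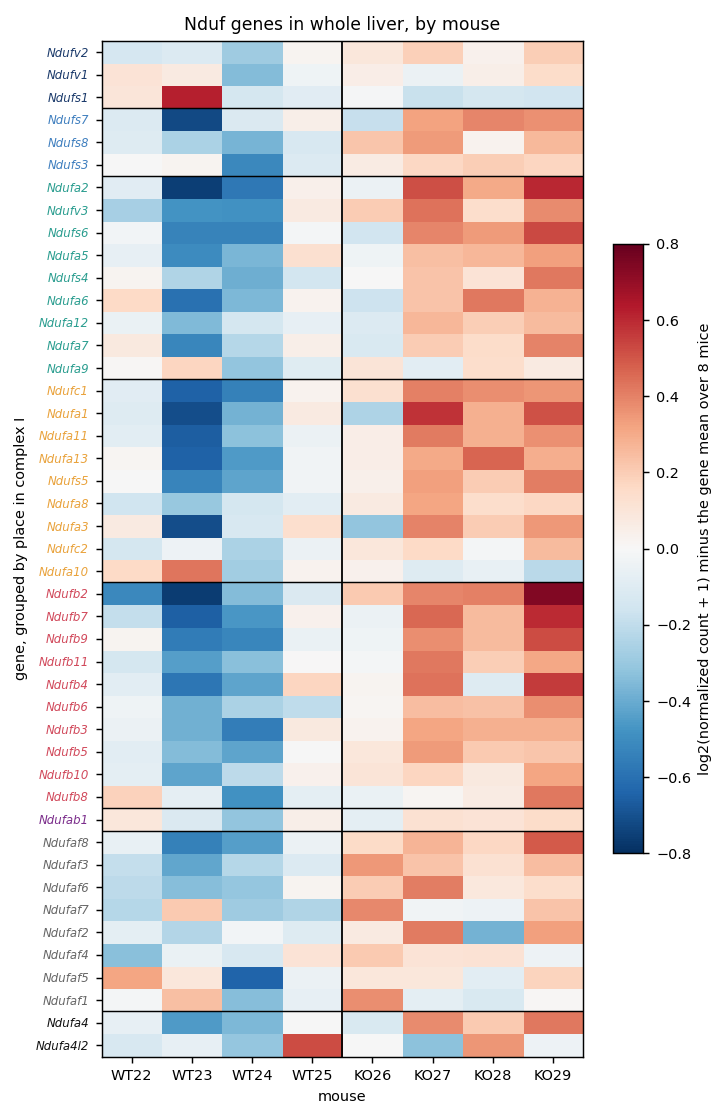
Heat map of 45 tested Nduf genes (rows, grouped and coloured by place in complex I) in the 8 livers (columns). Colour gives log2(normalized count + 1) minus the mean of that gene over the 8 mice. WT23 and WT24 are mostly blue, KO27 and KO29 mostly red, and Ndufs1 and Ndufa10 run against the other subunits, with their highest value in WT23.

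The NADH-oxidizing tip showed the smallest differences, with a median log2 fold change of 0.09 over its 3 subunits. Ndufs1, the large iron-sulfur subunit at the head of the chain, is the longest of the core subunits and lies on chr1:63143596-63176833 (mm10, minus strand). It stood at 1481, 2130, 1254 and 1300 normalized counts in WT and at 1372, 1221, 1253 and 1245 in KO livers. The KO livers were tightly grouped, and WT23 was far above all others, so that the groups overlapped (log2 fold change −0.28 ± 0.17 SE, adjusted P = 0.444 in edgeR). Without WT23 the fold change of Ndufs1 was −0.08. Ndufv1, which holds the NADH site and the flavin, stood at 3688, 3587, 2686 and 3339 in WT and at 3548, 3298, 3520 and 3775 in KO. Only WT24 was apart, and the log2 fold change was 0.09 ± 0.13. For Ndufv2, the third protein of this module, the counts were 1770, 1798, 1593 and 1967 in WT and 2061, 2209, 1984 and 2222 in KO. Here every KO liver was above every WT liver, by a log2 fold change of 0.25 ± 0.11 (unadjusted P = 0.0454, adjusted P = 0.286, edgeR).

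On the quinone side the 4 core subunits had a median log2 fold change of 0.36. Ndufs3, a scaffold of the first assembly intermediate, stood at 2226, 2269, 1563 and 2067 in WT and at 2336, 2504, 2561 and 2509 in KO. All KO livers were higher, and WT24 was the lowest by a wide margin (log2 fold change 0.29 ± 0.13, unadjusted P = 0.0592 in edgeR).

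Ndufs8 carries a pair of iron-sulfur clusters close to the quinone. It stood at 1301, 1176, 1083 and 1283 in WT and at 1633, 1775, 1428 and 1674 in KO livers, and the groups did not overlap (log2 fold change 0.43 ± 0.11, adjusted P = 0.134 in edgeR and 0.0298 in DESeq2). Ndufs7 binds the last cluster of the chain and stood at 2285, 1496, 2282 and 2550 in WT and at 2172, 3086, 3243 and 3185 in KO. KO26 lay apart from the other KO livers and within the WT range (log2 fold change 0.44 ± 0.19, unadjusted P = 0.0419, adjusted P = 0.280 in edgeR).

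Accessory subunits of the matrix arm had a median log2 fold change of 0.38, with 9 of 9 higher and 6 of 9 at an unadjusted P under 0.05. Over all tested genes 48.3% were higher, and 8.65% were higher at that threshold. Ndufv3, a partner of the NADH-oxidizing tip, stood at 1429, 1233, 1225 and 1807 in WT and at 1976, 2321, 1888 and 2227 in KO livers. No KO liver was as low as the highest WT liver (log2 fold change 0.56 ± 0.15, adjusted P = 0.131 in edgeR and 0.0224 in DESeq2). Ndufa2 had the largest difference of the matrix arm, at 2510, 1583, 1801 and 2748 in WT and 2588, 3821, 3305 and 4054 in KO (log2 fold change 0.67 ± 0.21, adjusted P = 0.174 in edgeR and 0.0490 in DESeq2). KO26 lay between WT22 and WT25, and the other 3 KO livers lay above them. Ndufa9, which binds a nucleotide cofactor beside the quinone site, had the smallest difference of this class, with 1860, 2078, 1484 and 1727 in WT and 1984, 1741, 2032 and 1945 in KO (log2 fold change 0.11 ± 0.13). The remaining 6 (Ndufs4, Ndufs6, Ndufa5, Ndufa6, Ndufa7 and Ndufa12) had log2 fold changes between 0.31 and 0.55.

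Among the 9 accessory subunits of the proximal membrane arm the median log2 fold change was 0.48. At an unadjusted P under 0.05, 7 were higher, against 8.65% of all tested genes. Ndufc1 stood at 1015, 689.3, 742 and 1103 in WT and at 1184, 1433, 1398 and 1381 in KO livers, without overlap (log2 fold change 0.60 ± 0.16, adjusted P = 0.135 in edgeR and 0.0293 in DESeq2). Ndufa11, a membrane subunit at the junction with other complexes, is encoded on chr17:56717762-56724248 (plus strand). Its counts were 1386, 928.2, 1168 and 1419 in WT and 1525, 1954, 1783 and 1893 in KO, again without overlap (log2 fold change 0.55 ± 0.15, adjusted P = 0.148 in edgeR and 0.0350 in DESeq2). Ndufa10 went the other way. This subunit has a nucleoside kinase fold, its gene lies on chr1:92439010-92473860 (minus strand), and it stood at 2951, 3561, 2177 and 2698 in WT and at 2702, 2461, 2541 and 2279 in KO. The groups overlapped and WT23 was again the highest (log2 fold change −0.19 ± 0.15, adjusted P = 0.575 in edgeR). The other 6 (Ndufa1, Ndufa3, Ndufa8, Ndufa13, Ndufs5 and Ndufc2) lay between 0.24 and 0.56.

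The distal membrane arm had 10 of 10 accessory subunits higher, against 48.3% of all tested genes, and a median log2 fold change of 0.45. At an unadjusted P under 0.05, 9 of them were higher, against 8.65% of all tested genes. Ndufb2 had the largest difference of all subunits. It stood at 247.3, 208.5, 278.7 and 326.5 in WT and at 409.3, 464.6, 467.9 and 592.2 in KO livers, so that the lowest KO liver was above the highest WT liver (log2 fold change 0.87 ± 0.17, adjusted P = 0.0738 in edgeR and 0.000598 in DESeq2). The exact two-sided permutation P on the counts was 0.0286, the smallest that 4 against 4 mice can give. Any gene without overlap has this P, and Ndufb2 was picked by its edgeR P in the same mice, so that it adds nothing to the separation. The Ndufb2 gene lies on chr6:39592574-39603382 (plus strand). With a WT mean of 265.3 ± 49.95 (SD, n = 4) it had the fewest counts of the 36 subunits, and its exons overlap those of Braf, Gm16272 and Gm42420 by 146, 156 and 145 bases, so that its count is uncertain.

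Ndufb6 stood at 1141, 895.8, 982 and 1016 in WT and at 1185, 1391, 1377 and 1516 in KO livers (log2 fold change 0.44 ± 0.12, adjusted P = 0.141 in edgeR and 0.0341 in DESeq2). The groups did not overlap, though WT22 came close to KO26. Exons of Ndufb6 overlap those of Smim27 by 257 bases, beside a Length of 659, so that this count is uncertain too. Ndufb4, whose processed copy Ndufb4c held 0 to 3 counts, had 1023, 723.7, 808.5 and 1221 in WT and 1098, 1465, 1007 and 1597 in KO, and the groups overlapped (log2 fold change 0.45 ± 0.20). Ndufb8, a subunit widely used as a protein marker of assembled complex I, had the smallest difference of the class, with 1271, 1065, 799.3 and 1059 in WT and 1079, 1131, 1173 and 1497 in KO (log2 fold change 0.22 ± 0.16). The other 6, Ndufb3, Ndufb5, Ndufb7, Ndufb9, Ndufb10 and Ndufb11, had log2 fold changes between 0.33 and 0.63. Ndufab1, the mitochondrial acyl carrier protein that complex I holds in both arms, had a log2 fold change of 0.14 ± 0.12 with overlapping groups.

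**Figure D2:**
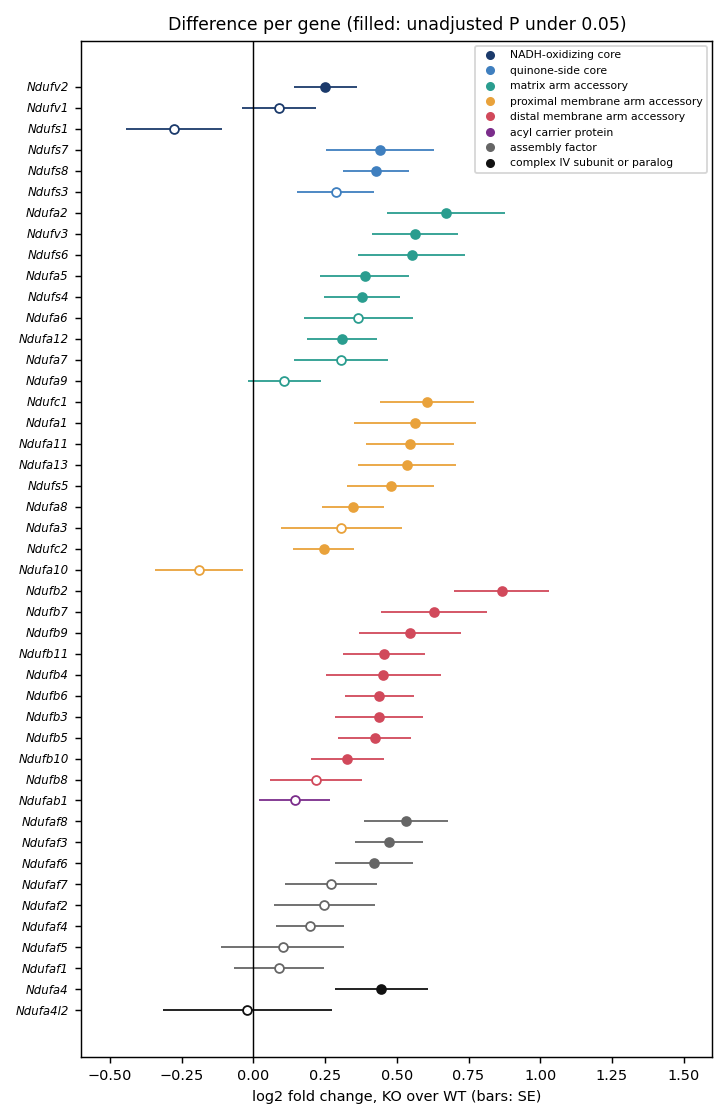
Log2 fold change of MøFoxO1-KO over WT livers for 45 tested Nduf genes, with bars for the SE of the edgeR fit (4 mice per group). Points are coloured by place in the complex and filled where the unadjusted P is under 0.05, as in 25 subunits and 3 of 8 assembly factors. Of all tested genes, 8.65% were higher at that threshold. Ndufs1, Ndufa10 and Ndufa4l2 lie left of 0, and Ndufb2 is farthest to the right.

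Counted over the complex, 29 accessory subunits had a median log2 fold change of 0.44 with 22 at an unadjusted P under 0.05, and the 7 core subunits one of 0.25 with 3. At that threshold 8.65% of all tested genes were higher. With the offset for gene Length described below, 7 accessory and 0 core subunits were higher at that threshold, against 7.31% of all tested genes. Of these 7 accessory subunits, 1 was in the matrix arm, 3 in the proximal and 3 in the distal membrane arm. The accessory subunits together took 3337, 2425, 2877 and 3330 CPM (reads of a gene scaled to a common total of all counts) in WT and 3025, 3582, 3782 and 3848 in KO livers, with means of 2990 ± 435 and 3560 ± 374 (SD, n = 4). The core subunits took 1071, 1018, 976.8 and 1039 in WT and 1020, 1009, 1111 and 1072 in KO, with means of 1030 ± 39.5 and 1050 ± 47.4. On the CPM scale the share of the core subunits thus differed by less than the spread between mice. On the scale of normalized counts, which the rest of the values use, the core subunits summed to 16753, 16848, 13905 and 16575 in WT and to 17621, 18387, 18130 and 18825 in KO, so that every KO liver was above every WT liver (ratio of means 1.14). The accessory subunits had a ratio of means of 1.32 on that scale, with overlap through KO26. In the ratio of accessory to core counts the WT livers stood at 3.12, 2.38, 2.95 and 3.21 and the KO livers at 2.97, 3.55, 3.41 and 3.59. WT23 was the lowest of the 8 and KO26 lay within the WT range, so that the groups overlapped in this ratio too. No TMM factor enters the CPM or changes the ratio.

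**Figure D3:**
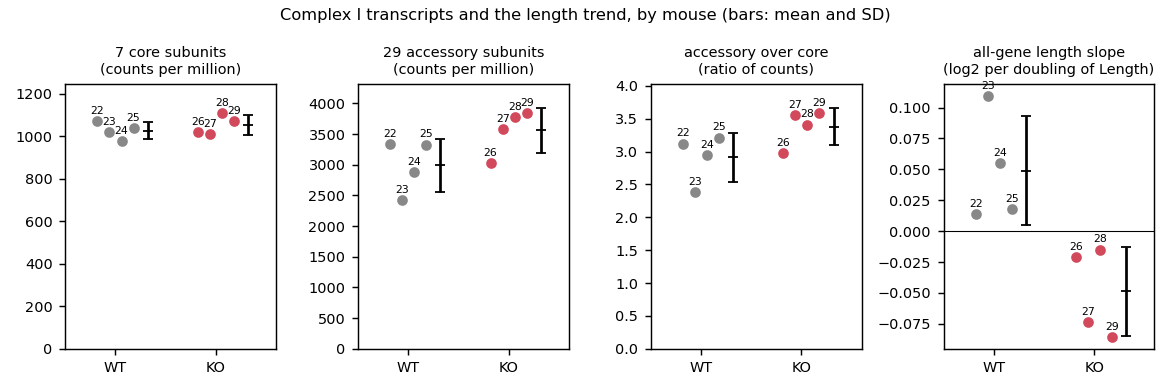
Summed CPM of the 7 core subunits and of the 29 accessory subunits, the ratio of their counts, and the slope of log2 counts on log2 gene Length over all tested genes, in each mouse (points with animal numbers, with bars for the group mean and SD). Without TMM factors, core sums lie between 976.8 and 1111 in all livers, accessory sums between 2425 and 3848, and the slope is above 0 in the 4 WT and below 0 in the 4 KO livers.

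The Ndufaf assembly factors were given apart from the subunits, since their proteins leave the enzyme once it is built. All 8 had a log2 fold change above 0, with a median of 0.26, and 3 of them had an unadjusted P under 0.05. Over all tested genes, 48.3% were above 0 and 8.65% were higher at that threshold. They are much less abundant than the subunits. Per kilobase of principal transcript, the WT mean lay between 83.8 and 447.7 normalized counts with a median of 156 for assembly factors, and between 60.7 and 5830 with a median of 1617 for subunits. Ndufb2, whose principal transcript is 4371 bases long for a coding length of 315, was the lowest subunit on this scale, and Ndufa6 was the highest.

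Ndufaf3, which joins Ndufaf4 in the early quinone module, is encoded on chr9:108565537-108567434 (minus strand). It stood at 218.3, 186.8, 212.3 and 231 in WT and at 317.3, 292.6, 271.4 and 295.5 in KO livers. The groups were well apart (log2 fold change 0.47 ± 0.12, adjusted P = 0.123 in edgeR and 0.0322 in DESeq2). Its partner Ndufaf4 stood at 382.2, 465.1, 441.2 and 518.7 in WT and at 556.9, 520.7, 522.9 and 469.1 in KO, with overlap through KO29 (log2 fold change 0.20 ± 0.12). Ndufaf8, a small factor that stabilizes Ndufaf5, stood at 400.9, 286.1, 307.3 and 404.2 in WT and at 463.9, 504, 467.9 and 587.7 in KO. Here too the groups did not overlap (log2 fold change 0.53 ± 0.15, adjusted P = 0.144 in edgeR and 0.0507 in DESeq2). Ndufaf5 itself, a hydroxylase that acts on Ndufs7, was low, with 124.6, 106.2, 63.7 and 96.6 in WT and 106.4, 106.3, 94.0 and 113.1 in KO, and WT22 was the highest of all (log2 fold change 0.10 ± 0.21).

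Ndufaf6, which acts early in assembly of the quinone side, stood at 182.7, 166.2, 169.8 and 214 in WT and at 243.5, 280.7, 224 and 232.8 in KO livers, without overlap (log2 fold change 0.42 ± 0.14, adjusted P = 0.189 in edgeR). Ndufaf7, a methyltransferase, stood at 182.7, 247.8, 175.4 and 181.2 in WT and at 279.9, 210.2, 207.8 and 250.8 in KO. WT23 was the only WT liver inside the KO range (log2 fold change 0.27 ± 0.16). Ndufaf2, a factor of late assembly that is a paralog of Ndufa12, had 189.2, 170.1, 196.6 and 186.2 in WT and 209.9, 267.5, 153.7 and 250.8 in KO, where KO28 was the lowest of the 8 (log2 fold change 0.25 ± 0.18). Ndufaf1, a part of the membrane arm assembly complex, had 368.1, 440.5, 294.4 and 355.4 in WT and 482.2, 352.3, 341.6 and 375 in KO (log2 fold change 0.09 ± 0.16). Thus every KO liver was above every WT liver for 3 of the 8 factors, against 5.00% of tested genes.

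Ndufa4 was first described with complex I and is now placed in complex IV. It stood at 6190, 4740, 5051 and 6470 in WT and at 5953, 8422, 7505 and 8699 in KO livers, with only KO26 inside the WT range (log2 fold change 0.45 ± 0.16, unadjusted P = 0.0201, adjusted P = 0.220 in edgeR). Its hypoxia-responsive paralog Ndufa4l2 was low, with 26.2, 27.5, 23.1 and 41.8 in WT and 28.8, 22.7, 37.0 and 27.99 in KO (log2 fold change −0.02 ± 0.30). The processed pseudogenes Ndufs6b, Ndufb4c and Ndufa11b held at most 9, 3 and 2 counts in any liver.

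Promoter sequences were looked at because so many of these genes, spread over 15 chromosomes in the case of the subunits, were higher together. RefSeq promoter entries on GRCm38.p6, from 250 bases before to 50 after the start of a gene, were found for 39 of the 44 subunits and assembly factors. They were searched on both strands for the letters GCGCATGCG (NRF1), CCGGAAG (ETS factors such as GABP), AGATGGCGG (YY1), TGACCTTGA (ESRR) and TGTTTAC (the forkhead core that FOXO proteins read). NRF1 and GABP are classical activators of nuclear genes for respiratory proteins. The NRF1 letters were in 4 of 39 entries (10.3%), against 1.95% of all 27025 genes with an entry and 3.96% of those tested here. The YY1 letters were in 5 (12.8%), against 1.24% and 2.74%, and all 5 matches began after the start site. The ETS letters were in 6 (15.4%), against 9.93% and 19.5%, the ESRR letters in 0, against 0.47% and 0.36%, and the forkhead letters in 1 (2.6%), against 4.05% and 3.28%. The forkhead letters were thus not more frequent in these entries than among all genes.

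Shown here are the 120 bases before the start for the 4 genes with a match in that stretch whose stretch lies outside the gene as the deposited table draws it, except for the last 6 bases of that of Ndufaf8, with the matched letters in capitals (5′ to 3′ on the strand of the gene). For Ndufa11 (chr17:56717642-56717761, plus strand) and Ndufaf4 (chr4:24897963-24898082, plus strand) the capitals mark the NRF1 letters, matched on both strands with a shift of 1 base. For Ndufaf8 (chr11:120098814-120098933, plus strand) they mark the ETS letters, which reach into the table's gene. For Ndufaf1 (chr2:119662835-119662954, minus strand) they mark first the forkhead and then the ETS letters.
Ndufa11: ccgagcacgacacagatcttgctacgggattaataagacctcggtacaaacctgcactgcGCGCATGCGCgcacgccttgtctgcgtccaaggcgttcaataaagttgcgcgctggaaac
Ndufaf4: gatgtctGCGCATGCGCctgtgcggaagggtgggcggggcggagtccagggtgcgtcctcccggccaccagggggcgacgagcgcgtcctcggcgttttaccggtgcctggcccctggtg
Ndufaf8: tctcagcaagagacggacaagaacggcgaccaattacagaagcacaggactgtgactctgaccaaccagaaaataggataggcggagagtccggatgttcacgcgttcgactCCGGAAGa
Ndufaf1: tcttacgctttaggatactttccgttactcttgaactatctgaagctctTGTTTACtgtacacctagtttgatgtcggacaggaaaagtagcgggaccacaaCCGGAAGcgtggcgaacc

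The log2 fold changes of these 4 genes were 0.55, 0.20, 0.53 and 0.09, in the same order. Ndufaf1, with the only forkhead match, thus had the smallest difference of the 8 Ndufaf genes. A match of letters is a description and does not show that a protein binds there.

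The difference followed gene length, in complex I as over the whole table. The deposited table gives a Length for each gene, the summed length of its exons. Across the 36 subunits the log2 fold change was lower by 0.0739 for each doubling of Length (Pearson r = −0.362, Spearman rho = −0.337), and across all 13278 tested genes by 0.102 (r = −0.222, rho = −0.286). Across the 8 assembly factors the slope was −0.0735 (r = −0.354, rho = −0.214). These are correlations across genes of the same libraries, and genes are not independent replicates. In subunits the slope was −0.0392 without WT23 and −0.0948 without KO26. Both mice also stood apart in the heat map, WT23 with the lowest values among WT livers and KO26 with the lowest among KO livers.

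**Figure D4:**
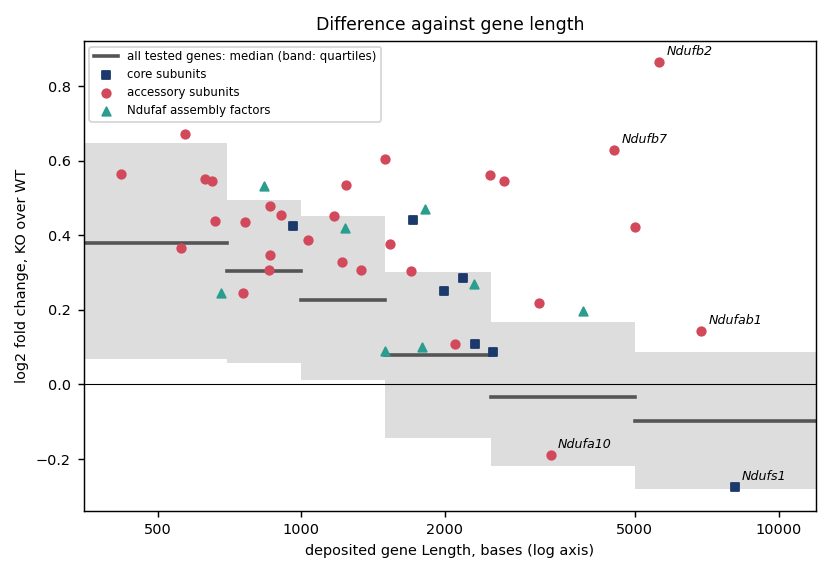
Log2 fold change of MøFoxO1-KO over WT livers against the deposited gene Length on a log axis, for 7 core subunits, 29 accessory subunits and 8 assembly factors. Grey lines and bands give the median and the quartiles of all tested genes in 6 classes of Length. The medians of all genes fall from 0.379 to −0.0992 with Length, and 32 of the 36 subunits lie above the median of their class.

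The trend with length was not limited to complex I. Among the 383 tested genes with a Length under 700 bases the median log2 fold change was 0.379 and 27.2% were higher at an unadjusted P under 0.05, while the 6 subunits in this class had a median of 0.548. From 700 to 1000 bases the medians were 0.305 for 354 genes and 0.427 for 7 subunits, and from 1000 to 1500 bases 0.227 for 863 genes and 0.420 for 6 subunits. From 1500 to 2500 bases they were 0.0803 and 0.296 (8 subunits), from 2500 to 5000 bases −0.033 and 0.321 (6 subunits), and from 5000 bases −0.0992 and 0.144 (3 subunits). The subunit median was therefore above that of all genes in each of the 6 classes. In all, 32 of 36 subunits were above the median of their class, and Ndufs1, Ndufa10, Ndufa6 and Ndufc2 were the exceptions.

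Length as deposited sums all annotated exons and can exceed the usual transcript by far, as for Ndufb7 with 4522 against 623 bases and for Ndufa11 with 2661 against 545. With the coding length in its place the relation within complex I was tighter, at a slope of −0.188 (r = −0.667, rho = −0.560), against −0.0893 (r = −0.194) over all genes with a coding length. The 26 subunits with coding sequences under 600 bases had log2 fold changes from 0.14 to 0.87 and a median of 0.44, and 21 of them were higher at an unadjusted P under 0.05. In the 6 subunits with 1000 coding bases or more, among them Ndufs1, Ndufv1, Ndufa9 and Ndufa10, the median was 0.10, and only Ndufv3 passed that threshold. Over all tested genes the medians were 0.20 and −0.08 for the same classes of coding length. Of tested genes of any length, 8.65% were higher at that threshold. Core subunits are mostly the longer proteins and accessory subunits the shorter ones, so that place in the complex and length cannot be fully told apart.

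Each mouse had its own trend with length. The slope of the log2 counts of all tested genes on log2 Length, relative to the mean of the 8 livers, was 0.0136, 0.109, 0.055 and 0.0177 in WT and −0.0208, −0.0737, −0.015 and −0.0854 in KO livers. The median deviation of the 36 subunits from their gene means was −0.05, −0.43, −0.35 and −0.01 on the log2 scale in WT, and 0.02, 0.31, 0.20 and 0.32 in KO. Thus the livers with the steepest positive slopes, WT23 and WT24, were those with the lowest subunit values, and KO27 and KO29, with the steepest negative slopes, were among those with the highest. The slope separated the 4 WT from the 4 KO livers, and a fit with an offset for length was therefore set beside the one without.

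When the length trend of each library was entered as an offset in the edgeR fit, the median log2 fold change of the 36 subunits was 0.17 in place of 0.41. At an unadjusted P under 0.05, 7 subunits were higher in place of 25, against 7.31% of all tested genes. The 7 were Ndufb2 (0.95), Ndufb7 (0.69), Ndufa11 (0.54), Ndufv3 (0.54), Ndufb5 (0.49), Ndufc1 (0.44) and Ndufa13 (0.32), all of them among the 25. With the offset 33 of the 36 had a log2 fold change above 0. Of the 8 assembly factors 5 did, with a median of 0.21, and Ndufaf3 was the one at an unadjusted P under 0.05 (log2 fold change 0.36). The median over all tested genes in that fit was −0.0017, so that genes above and below 0 were close to evenly divided. Several of the 7 have a deposited Length well above that of their principal transcript, such as Ndufb7, Ndufa11 and Ndufb5, and so lie in classes of Length whose median over all genes was −0.033. With an offset by the principal transcript instead, the subunit median was 0.14, and 7 subunits were higher at that threshold, of which 5 were among the 7 with the offset by Length (Ndufb2, Ndufb7, Ndufv3, Ndufc1 and Ndufa13). Ndufa11 and Ndufb5 were not among them and had log2 fold changes of 0.17 and 0.20 in that fit, and Ndufb7 had 0.27.

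**Figure D5:**
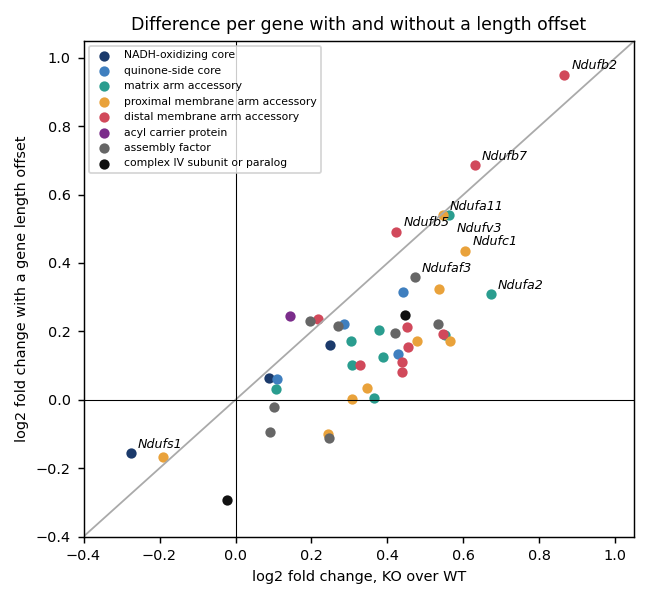
Log2 fold change of the 46 tested Nduf genes in the edgeR fit (horizontal axis) and in the fit with an offset for the length trend of each library (vertical axis), coloured by place in the complex. The grey diagonal marks equal values. Most points lie below it. Ndufb2, Ndufb7 and Ndufb5 lie above it, at 0.95, 0.69 and 0.49, as do Ndufab1, Ndufaf4, Ndufb8, Ndufs1 and Ndufa10.

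The 7 complex I subunits that mitochondrial DNA encodes are measured in the same libraries. Of mt-Nd1 to mt-Nd6 with mt-Nd4l, 5 were higher and 2 lower, the median log2 fold change was 0.11, and none had an unadjusted P under 0.05 in edgeR. The median changed sign with the offsets for length. It was −0.15 with the offset by Length and −0.12 with that by principal transcript. mt-Nd1, the most abundant, stood at 114700, 100100, 133000 and 140800 in WT and at 123500, 132300, 153900 and 141600 in KO livers (log2 fold change 0.17 ± 0.16). mt-Nd5 stood at 49420, 80010, 56240 and 44580 in WT and at 54770, 25690, 50580 and 40240 in KO (−0.43 ± 0.26). WT23 was the highest and KO27 the lowest for mt-Nd5, which is the longest of the 7 at 1824 bases. The difference between the nuclear and the mitochondrial set was not tested.

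Assembly factors without an Nduf name had mostly negative differences. Of 11 listed, 10 were tested, 2 of them higher and 8 lower. Their median log2 fold change was −0.15. The 2 higher ones both had an unadjusted P under 0.05, and their groups did not overlap. Over all tested genes 8.65% were higher at that threshold, and in 5.00% every KO liver lay above every WT liver. Ecsit, which holds the membrane arm assembly complex together with Ndufaf1, had means of 635.8 ± 71.2 in WT and 776.7 ± 20.9 in KO (log2 fold change 0.29 ± 0.11, adjusted P = 0.225 in edgeR). Dmac1, a factor for the distal membrane arm, had means of 456.8 ± 85.9 and 715.7 ± 109.7 (0.65 ± 0.16, adjusted P = 0.121 in edgeR). The 8 lower ones (Acad9, Nubpl, Tmem186, Foxred1, Timmdc1, Tmem70, Tmem126b and Dmac2) had log2 fold changes between −0.56 for Acad9 and −0.07 for Dmac2, and none of them had an unadjusted P under 0.05 in edgeR.

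Around complex I, the electron transfer flavoprotein subunit Etfb, which feeds electrons from fatty acid oxidation into coenzyme Q, was higher in KO livers, at 1108 ± 257 in WT and 1890 ± 319 in KO (log2 fold change 0.77 ± 0.19, adjusted P = 0.120 in edgeR). The other genes of that list, Etfa and Etfdh, did not pass an unadjusted P of 0.05. Of 11 genes for coenzyme Q synthesis only Coq3 did (log2 fold change 0.26 ± 0.12), and the list had a median of −0.01. At that threshold 8.65% of all tested genes were higher and 8.06% were lower, and 1 of 11 is close to such a share. Of 14 regulators of mitochondrial genes, 4 were higher and 10 lower, where 48.3% of all tested genes were higher. Lower at an unadjusted P under 0.05 was 1 of the 14, again close to the share of all genes. The median Length of this list was 4562 bases, and its median log2 fold change was −0.13, or −0.12 with the offset for Length. Ppargc1a, the coactivator that drives mitochondrial biogenesis, was the one at an unadjusted P under 0.05, and it was lower in KO livers, with 118, 168.1, 108 and 166.3 in WT and 86.3, 97.9, 118.6 and 84.0 in KO (log2 fold change −0.53 ± 0.21, adjusted P = 0.243 in edgeR).

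Nuclear genes of the other respiratory complexes were counted in the same way. The median log2 fold change was 0.08 in complex II with 0 of 4 higher at an unadjusted P under 0.05, 0.25 in complex III with 4 of 9, 0.44 in complex IV with 10 of 13, and 0.35 in complex V, the ATP synthase, with 11 of 17. Over all tested genes 8.65% were higher at that threshold, and 23.2% to 28.5% in the 3 classes of Length under 1500 bases. The median Length was 1108 bases in the complex IV list, 1237 in that of complex III and 1928 in that of complex V. With the length offset the medians of complexes II, III, IV and V were −0.02, 0.11, 0.18 and 0.17, beside 0.17 for complex I. The medians of complexes IV and V were thus close to that of complex I, and differences between the complexes were not tested.

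Exons of 16 subunits and 2 assembly factors overlap those of a neighbouring gene, mostly on the opposite strand, and whether strand was used in counting is not given in the sources used here. The counts of all of these genes are uncertain to that extent, among them Ndufa13 with 375 bases of overlap beside a Length of 1243, and Ndufa11, Ndufa2 and Ndufaf3 with 70, 66 and 48 bases. Of these 16 subunits 9 were higher at an unadjusted P under 0.05, and of the 20 without an overlap 16 were, against 8.65% of all tested genes.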

How the data were processed

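Liver RNA of 8 mice (4 WT littermates, 4 MøFoxO1-KO) was compared, grouped by the genotype in the labels. The file deposited by the authors holds raw read counts of each gene and mouse, neither normalized nor pooled. The submitters' processing notes name STAR, featureCounts and mm10. Their versions, whether strand was used and how multimapping reads were handled are not given in the sources used here. Of 46517 genes, 46005 have a symbol in GENCODE M21, and genes without one hold 0.0399% of the counts. The table follows another annotation release of the same build, since 38860 genes have the same start and end in M21.

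Genes were filtered with filterByExpr (minimum count 10, minimum total 15), scaled with TMM factors and fitted in edgeR 4.0.16 (R 4.3.3) with its quasi-likelihood test and Benjamini-Hochberg adjustment over all 13278 tested genes (common biological coefficient of variation 0.256). For single genes, scipy 1.17.1 gave exact two-sided permutation P values on normalized counts. Alternatives were DESeq2 1.42.0, its size factors, upper-quartile normalization, other filters, mitochondrial genes left out, limma-voom (limma 3.58.1), the robust fit, a lowess trend of each library on log2 Length as an offset (span 0.3), other thresholds and leaving out each mouse. Offsets for Length with GC content and for transcript length, and the coding and principal transcript lengths, were chosen after seeing the data. The main edgeR fit, DESeq2, limma-voom and the edgeR fit with the offset for Length were tested on simulated data first. The other alternatives were not.

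The core subunits, the assembly factors, Ndufa4, Ndufa4l2 and Ndufb4 were named whatever their values. In each accessory class, the 2 genes with the smallest P and the one with the lowest fold change were chosen by their values. A gene of the rule is not reported here by name. Other genes named with values were chosen after their values were seen. The members and lists were chosen with earlier results of these data known. Depth of 15253218 to 18025481 counts sets the precision, which is low where a gene has few counts. The labels do not say that mice came from separate litters or cages, and P values measure the spread between these mice.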

Additional observations from a re-analysis of the deposited data

Results flagged for a closer look

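Among 62 groups of 4 mice that were looked at, 2 held a value far from the other 3, where chance gives about 1 in 20. Ndufs7 had 2170 normalized counts in KO26, while the nearest KO liver had 3090 and the highest 3240. Ndufaf7 had 248 in WT23, while the nearest WT liver had 183 and the lowest 175. KO26 also had the lowest KO value in 25 of 36 subunits. Causes of either value were not tested.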

How the results depend on the processing

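The median log2 fold change of the 36 subunits was 0.187 with an offset for Length and GC content, 0.173 for Length and 0.139 for transcript length, and between 0.344 and 0.463 with 1 mouse left out. The number of subunits higher at an unadjusted P under 0.05 was 8, 7 and 7 with these offsets, and between 16 and 25 with 1 mouse left out (16 without KO29 and 16 without WT24). An adjusted P under 0.05 was reached by 9 subunits in DESeq2 and by 1 without a filter on low counts, and an adjusted P under 0.1 by 1 in edgeR. That gene was Ndufb2 in the last 2 cases. For the assembly factors the median lay between 0.223 and 0.370 with 1 mouse left out, with the highest value without KO28, and the number at an unadjusted P under 0.05 was 1 with the offset for Length and 1 with that for Length and GC content. The slope of the subunits on Length turned positive, to 0.0703, 0.0713 and 0.0165, with the offsets for Length, for Length and GC content and for transcript length. Such an offset removes the trend of all genes, whose slope on Length in the main fit (−0.102) was steeper than that of the subunits (−0.0739). On coding length, without an offset, the slope of the subunits was −0.188. Single genes with small differences changed sign. With the offsets for Length, for Length and GC content and for transcript length, Ndufaf1 was at −0.0935, −0.0727 and −0.0477, Ndufaf2 at −0.113, −0.0941 and −0.115, and Ndufaf5 at −0.0219, −0.00372 and −0.106. With transcript length Ndufa9 was at −0.0302 and Ndufb8 at −0.142. Ndufa4l2 was at 0.0136 with limma-voom and at 0.00231 with upper-quartile normalization. With 1 mouse left out, Ndufv1 lay between −0.00245 and 0.140, Ndufaf1 between −0.0351 and 0.193, Ndufaf5 between −0.0586 and 0.239, and Ndufa4l2 between −0.147 and 0.187. None of these 7 genes passed the threshold in the main comparison. Ndufc2 did pass it (log2 fold change 0.24, unadjusted P = 0.0440 in edgeR) and also changed sign. It was at −0.101 with the offset for Length and at −0.117 with that for transcript length. The YY1 letters were in 0 entries when only the bases before the start were searched. Of the other alternatives, the number of subunits higher at an unadjusted P under 0.05 was 23 without a filter on low counts, 26 with limma-voom, 26 with upper-quartile normalization and 25 with the rest. No paired analysis was possible because WT and KO mice share no replicate number. At this depth, Ndufa4l2 and the pseudogenes are limited by depth.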
